A study of Mus musculus with 8 samples.

Results

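The forkhead box P (FoxP) genes Foxp1, Foxp2 and Foxp4 were followed through sorted amygdalar intercalated cells of mouse embryos at E16.5. The members were taken by symbol, 3 of the 32543 genes in the deposited tables, and all 3 were above the low-count filter that left 14157 genes to test. RNA came from 8 pools of embryos: 4 knockout pools (Tshz1 GFP/RA) and 4 control pools (Tshz1 GFP/+). Both genotypes carry the GFP allele of Tshz1 that was used to sort the cells, so the controls are heterozygous and not wild type, and all mice were on an outbred background. Each pool joined dissected amygdala tissue from embryos of 1 genotype, and the titles join 1 knockout and 1 control library under each of the prefixes NX, NY, QT and RM. The labels do not say what a prefix marks, what the RA allele removes, or whether the pools came from separate litters. P-values therefore measure the spread between pools.

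FoxP proteins are transcription factors that bind DNA through a forkhead domain, pair with each other through a leucine zipper and mostly repress their targets. Foxp1 marks striatal projection neurons and several cortical layers, Foxp2 marks intercalated cells, part of the striatum and deep cortical layers and is best known from inherited speech disorder in humans, and Foxp4 is found more widely in the developing forebrain. Foxp3, the family's other gene, directs regulatory T cells. Intercalated cells are small clusters of GABAergic neurons around the basolateral amygdala, and Tshz1 is a zinc finger transcription factor that they express.

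In GENCODE's annotation of GRCm38, Foxp1 spans 98925338 to 99522721 of chromosome 6 (minus strand), Foxp2 spans 14901349 to 15441977 of the same chromosome (plus strand) and Foxp4 spans 47867133 to 47924645 of chromosome 17 (minus strand). All 3 are protein-coding, and no gene on the opposite strand overlaps their exons. The models Gm20696 and Gm49348 share exons with Foxp1 on the same strand, and the deposited tables hold no row for either. Expected counts, the estimated fragments per gene, were whole in 8 of 8 libraries for Foxp1 and Foxp4 and in 6 of 8 for Foxp2, within 1e-09. The largest fraction was 0.08 of a fragment, so few if any fragments were split with other genes of the tables, while fragments of Gm20696 or Gm49348 that lie in shared exons cannot be told from those of Foxp1. RefSeq lists 3 starts for Foxp1 and 1 for Foxp4 in its GRCm38.p6 promoter table, and Foxp2 had no entry. The 250 bases before each start are shown as background to the transcripts of these genes. The use of each start was not measured. Capitals mark the core of the forkhead site, TAAACA, on either strand (TGTTTA on the printed strand).
Foxp1, start at 99520993 (chr6:99520994-99521243): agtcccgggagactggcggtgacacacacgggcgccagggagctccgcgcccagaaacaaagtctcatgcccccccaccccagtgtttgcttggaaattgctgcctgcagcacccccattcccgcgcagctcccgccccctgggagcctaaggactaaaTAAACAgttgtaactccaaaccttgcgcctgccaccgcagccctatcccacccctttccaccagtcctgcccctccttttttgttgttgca
Foxp1, start at 99266515 (chr6:99266516-99266765): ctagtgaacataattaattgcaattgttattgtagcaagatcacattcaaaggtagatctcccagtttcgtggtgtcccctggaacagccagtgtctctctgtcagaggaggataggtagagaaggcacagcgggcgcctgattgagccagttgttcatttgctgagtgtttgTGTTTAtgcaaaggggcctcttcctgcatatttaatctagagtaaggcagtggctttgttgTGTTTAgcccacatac
Foxp1, start at 99028298 (chr6:99028299-99028548): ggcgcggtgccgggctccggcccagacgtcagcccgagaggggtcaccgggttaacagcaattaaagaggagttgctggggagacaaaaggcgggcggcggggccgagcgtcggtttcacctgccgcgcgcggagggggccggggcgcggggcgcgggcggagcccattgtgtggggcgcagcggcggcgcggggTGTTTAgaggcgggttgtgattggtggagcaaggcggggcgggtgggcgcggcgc
Foxp4, start at 47924632 (chr17:47924633-47924882): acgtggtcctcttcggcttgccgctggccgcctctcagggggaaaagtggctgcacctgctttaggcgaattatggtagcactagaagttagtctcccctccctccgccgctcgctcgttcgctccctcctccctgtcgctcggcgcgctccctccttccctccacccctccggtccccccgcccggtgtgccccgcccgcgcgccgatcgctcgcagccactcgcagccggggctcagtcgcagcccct
The core was found once before the outermost start of Foxp1, in 2 places before the middle start and once before the innermost, and not in the Foxp4 window. Of 32851 promoter windows of this length, 12% hold it. The longer forkhead site TGTTTAC was in none of these windows, against 3.17% of all windows. GC content was 60.8%, 45.2% and 74.0% before the Foxp1 starts, in the printed order, and 69.6% before the Foxp4 start (median over all windows 52.4%). These matches describe letters in a window and do not show that a protein binds there.

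Library totals ran from 6384571 to 13295690 expected counts in the knockout and from 5785612 to 14535867 in the control. Tshz1 transcript fell in the knockout, at 79.1 ± 29.4 CPM against 381 ± 115 CPM in control libraries (SD, n = 4 each; log2 fold change -2.27, SE 0.30, edgeR adjusted p = 0.0388). CPM are read counts scaled for library size and composition. The labelled cell type was set beside 13 intercalated cell markers other than Foxp2, whose detection alone does not establish that type. All 13 were detected in every library, among them Meis2 (1236 ± 265 CPM in knockout and 1458 ± 315 CPM in control libraries) and Gad2 (1262 ± 212 and 1372 ± 296 CPM), while Oprm1, the mu opioid receptor, was low (4.08 ± 3.55 and 5.10 ± 2.83 CPM). Of the 13, Tshz1 among them, 12 were fitted lower in the knockout (92.3%, against 50.6% of all genes tested; median log2 fold change -0.33, against -0.0053). EdgeR called Tshz1 alone, and 3 more had an unadjusted p under 0.05. These were the neuregulin receptor gene Erbb4 (log2 fold change -0.79, SE 0.25), the dopamine receptor gene Drd1 (-1.57, SE 0.54) and Slc32a1, which encodes the vesicular GABA transporter (-0.56, SE 0.21). The summed level of the 13 was 3015 to 3728 CPM in knockout and 3122 to 4818 CPM in control libraries, lower in the knockout in 4 of 4 prefixes. Without Tshz1 the sum was 2954 to 3650 CPM in the knockout and 2882 to 4326 CPM in the control, lower in 2 of 4 prefixes (NX and RM). In these pools of cells, fewer cells of a type and less RNA per cell cannot be told apart.

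Foxp4 was the member with the clearest separation between genotypes: it was lower in the knockout in every library. Its CPM were 34.5 (NX), 42.1 (NY), 35.0 (QT) and 37.8 (RM) in knockout libraries, and 89.8 (NX), 62.4 (NY), 75.5 (QT) and 55.97 (RM) in control libraries. All knockout values were below all control values, and the knockout values kept within a narrow band while the control values spread more widely. Means were 37.3 ± 3.48 CPM in the knockout and 70.9 ± 15.0 CPM in the control (SD, n = 4 each), a 1.90-fold lower level. Such a separation, with the knockout lower, was found for 1.46% of the genes tested. EdgeR gave a log2 fold change of -0.93 (SE 0.21), an unadjusted p of 0.000866, rank 31 of 14157, and a Benjamini-Hochberg adjusted p of 0.382 over all genes. Foxp4 therefore did not pass, and 0.0353% of genes did. DESeq2, which called 0.251% of its genes, placed it just past the threshold (-0.91, adjusted p = 0.0493; adjusted p from 0.0493 to 1.00 over the 22 alternatives). The exact two-sided permutation p of log2 CPM was 0.0286, the lowest value possible with 4 libraries a group. Within prefixes the knockout level was 2.61-fold lower in NX, 1.48-fold in NY, 2.16-fold in QT and 1.48-fold in RM. The closest values were those of knockout NY and control RM, whose 95% Poisson intervals, which cover counting error only, were 38.5 to 45.9 and 49.9 to 62.6 CPM and did not overlap.

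Foxp2 was lower in the knockout by a similar proportion within each prefix, while its level differed more between prefixes than between genotypes. CPM were 497 (NX), 178 (NY), 280 (QT) and 169 (RM) in knockout libraries, and 887 (NX), 301 (NY), 418 (QT) and 307 (RM) in control libraries. The NX libraries were the highest of each genotype, and knockout NX stood above 3 of the 4 controls, so the groups overlapped. Within prefixes the knockout was 1.78-fold lower in NX, 1.69-fold in NY, 1.49-fold in QT and 1.82-fold in RM. By contrast, the highest library of a genotype held 2.95 times the lowest, in the knockout and in the control alike. A lower knockout in all 4 prefixes was found for 8.49% of genes tested. The pooled means were 281 ± 153 CPM in the knockout and 478 ± 278 CPM in the control (SD, n = 4 each; log2 fold change -0.77, SE 0.41). Foxp2 did not pass over all genes, with edgeR p of 0.0834 unadjusted and 1.00 adjusted (0.0635 to 1.00 over the 22 alternatives), and the exact permutation p was 0.20. Both tests leave the prefix out, so the spread between prefixes is part of their error. The log2 fold change was -0.28 without control NX and -1.20 without knockout NX, the libraries with the highest Foxp2, and -0.71 (SE 0.27) without both.

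Foxp1 ran the other way, with more counts in the knockout in every prefix. CPM were 263 (NX), 370 (NY), 443 (QT) and 229 (RM) in knockout libraries, and 190 (NX), 243 (NY), 186 (QT) and 162 (RM) in control libraries. The groups overlapped by a single pair, knockout RM being just below control NY. Means were 326 ± 98.0 CPM in the knockout and 195 ± 34.0 CPM in the control (SD, n = 4 each), a ratio of 1.67. The edgeR log2 fold change was 0.74 (SE 0.24), with p of 0.00875 unadjusted and 1.00 adjusted (0.195 to 1.00 over the 22 alternatives), and the exact permutation p was 0.0571. Within prefixes the knockout held 1.38 times the control level in NX, 1.52 times in NY, 2.38 times in QT and 1.41 times in RM. A higher knockout in all 4 prefixes was found for 8.36% of genes tested. Over the 3 members, edgeR called 0 at an adjusted p under 0.05, with 2 at an unadjusted p under 0.05, a level that 3.62% of all genes reached. DESeq2 called 1, limma-voom 0. The permutation p of the 3 members are unadjusted.

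**Figure D1:**
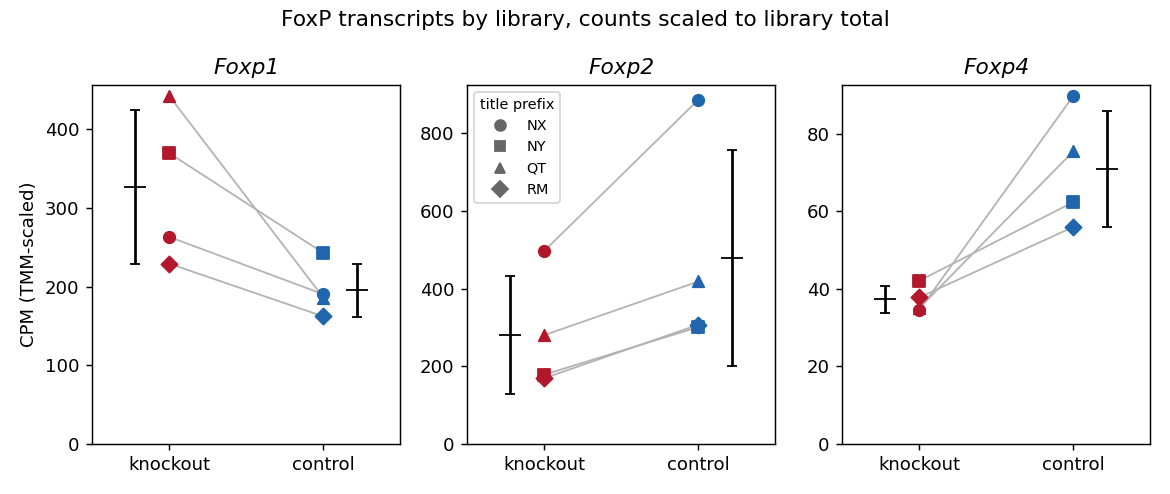
CPM of Foxp1, Foxp2 and Foxp4 in 4 knockout libraries (red, left of each panel) and 4 control libraries (blue, right); symbols give the title prefix, grey lines join the libraries of a prefix, and black bars are the mean and SD. Foxp4 values do not overlap between genotypes, Foxp2 is lower in the knockout within each prefix although its NX libraries stand high, and Foxp1 is higher in the knockout within each prefix.

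The transcript length assigned to Foxp1 also differed. The deposited gene files give, per library, the mean length of a gene's annotated transcripts weighted by the share of each that RSEM estimated, so a shift in this length marks a shift in the estimated mix of isoforms. Foxp1 has 10 annotated transcripts in these files. Its weighted length was 6149 (NX), 3728 (NY), 6344 (QT) and 4042 bases (RM) in knockout libraries, and 3914 (NX), 3679 (NY), 3112 (QT) and 3237 bases (RM) in control libraries. Knockout NX and QT stood far above every other library, knockout NY was close to the control of its prefix, and the groups overlapped at knockout NY and control NX. Means were 5066 ± 1372 bases in the knockout and 3485 ± 375 bases in the control (SD, n = 4 each). The knockout was longer in 4 of 4 prefixes, by ratios of 1.57 in NX, 1.01 in NY, 2.04 in QT and 1.25 in RM, and 4.85% of 7181 genes with several transcripts were longer in all 4. The difference in log2 length was 0.50 (SE 0.20), the 15th largest in size of those 7181 genes. It did not pass, with an unadjusted p of 0.0438 and an adjusted p of 1.00 in limma over these genes, of which 0 passed (0%) and 3.58% had an unadjusted p under 0.05. The exact permutation p was 0.0571.

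In GENCODE, whose transcripts are not those the authors used, 2 of 31 Foxp1 transcripts are at least 6000 bases long (the longest has 7177) and the next has 3727 bases. Of these long forms 1 begins at base 99266515, the middle RefSeq start whose upstream window is printed above. A weighted length does not say which transcript gained share. For Foxp2 and Foxp4 the group means lay closer together. Foxp2 was at 5299 ± 438 bases in knockout and 5496 ± 236 bases in control libraries, and Foxp4 at 3459 ± 305 and 3449 ± 264 bases (SD, n = 4 each). Their differences in log2 length were -0.056 (SE 0.066) and 0.0031 (SE 0.082), with unadjusted p of 0.428 and 0.971 in limma.

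The unit matters for Foxp1, since TPM divide counts by effective length and scale each library to a fixed sum. Foxp1 was at 100.1 (NX), 187 (NY), 137 (QT) and 68.2 TPM (RM) in knockout libraries, and 109 (NX), 120.1 (NY), 124 (QT) and 80.6 TPM (RM) in control libraries. The knockout was higher in NY and QT and lower in NX and RM, so the common direction seen in counts was absent. The difference in log2 TPM was 0.10 (exact permutation p = 0.80), against 0.71 in log2 CPM. For Foxp2 it was -0.76 in both units, and for Foxp4 -0.97 in log2 TPM and -0.90 in log2 CPM.

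**Figure D2:**
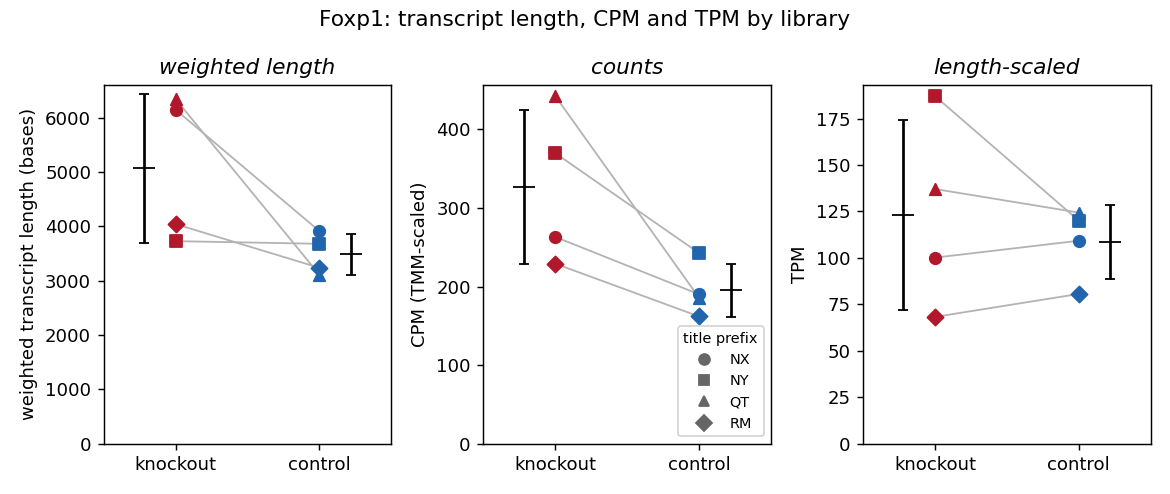
Weighted transcript length in bases, CPM and TPM of Foxp1 in knockout (red, left) and control libraries (blue, right), with prefixes joined by lines and the mean and SD in black. The length is largest in knockout NX and QT (6149 and 6344 bases), CPM are higher in the knockout in all 4 prefixes, and TPM are higher in only 2 of them.

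Per length, Foxp1 and Foxp2 were the abundant members and Foxp4 the scarce one in all 8 libraries. Foxp2 TPM were 206 (NX), 61.2 (NY), 101 (QT) and 43.1 (RM) in knockout libraries, and 351 (NX), 94.2 (NY), 151 (QT) and 92.3 (RM) in control libraries. Foxp4 TPM were 21.9 (NX), 22.8 (NY), 20.6 (QT) and 15.2 (RM) in knockout libraries, and 57.5 (NX), 30.6 (NY), 44.8 (QT) and 29.4 (RM) in control libraries. Foxp4 was thus the lowest in every library, and its TPM did not overlap between genotypes. This restates in another unit the counts given above. The share of all genes without overlap in TPM was not computed. Foxp1 stood above Foxp2 in knockout NY, QT and RM and in control NY, and below it in knockout NX and in control NX, QT and RM. Averaged over libraries, the order of Foxp1 (123 ± 51.1 TPM) and Foxp2 (103 ± 73.0 TPM) in the knockout, and of Foxp2 (172 ± 122 TPM) and Foxp1 (109 ± 19.7 TPM) in the control, did not hold beyond the spread between libraries (SD, n = 4 each).

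**Figure D3:**
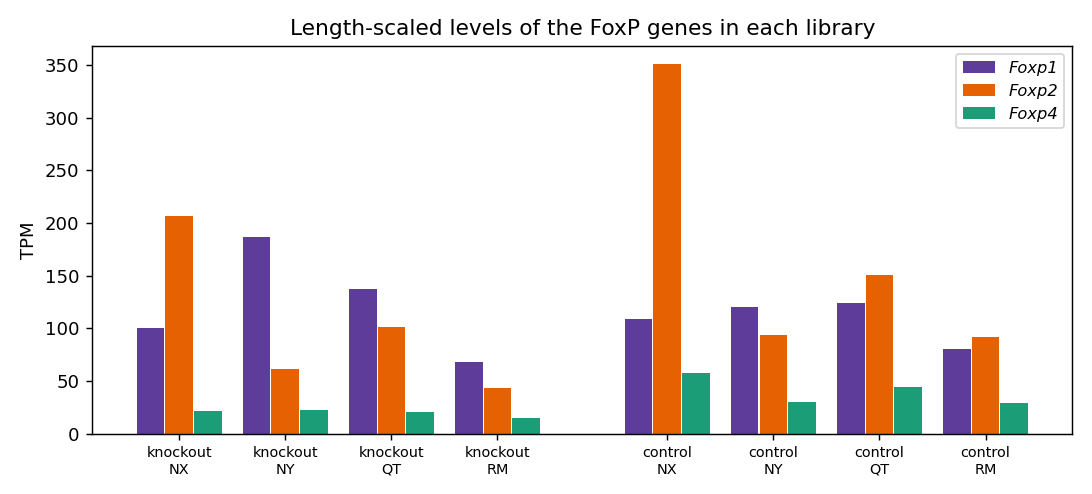
TPM of Foxp1, Foxp2 and Foxp4 in each of the 4 knockout libraries (left) and 4 control libraries (right); each bar is 1 library. Foxp4 is the lowest member in all 8, and Foxp2 exceeds Foxp1 in 1 knockout library and 3 control libraries.

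Ratios between the members set their levels side by side within a library. The Foxp4 to Foxp1 ratio of TPM was 0.218 (NX), 0.122 (NY), 0.150 (QT) and 0.223 (RM) in knockout libraries, and 0.527 (NX), 0.255 (NY), 0.360 (QT) and 0.365 (RM) in control libraries, with no overlap. The ratio of their counts did not overlap either, at 0.0791 to 0.165 in the knockout and 0.257 to 0.472 in the control. Both ratios restate the levels of Foxp4 and Foxp1 given above and are not a separate observation. The share of other gene pairs without overlap was not computed. The Foxp2 to Foxp1 ratio of TPM was below that of the control in each knockout library's own prefix, at 2.06 (NX), 0.327 (NY), 0.739 (QT) and 0.632 (RM) in knockout libraries and 3.21 (NX), 0.784 (NY), 1.21 (QT) and 1.15 (RM) in control libraries, and it overlapped between genotypes. The Foxp2 to Foxp4 ratio ran from 2.68 to 9.44 in the knockout and from 3.07 to 6.09 in the control. Foxp1 made up 30.5% to 69.0% of the summed TPM of the members in knockout libraries and 21.1% to 49.0% in control libraries. Foxp4 made up 6.66% to 12.02% and 11.1% to 14.5%. No test was run on these ratios and shares, which describe genes chosen together.

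The members were also set beside other forkhead genes. Of 44 forkhead genes in the tables, 14 had 0 counts in every library and 16 were tested. Mean TPM values over the 8 libraries were 137 for Foxp2, 116 for Foxp1, 69.2 for Foxn3, 53.3 for Foxj3 and 30.4 for Foxp4. The members together held 34.7% to 37.3% of all forkhead TPM in knockout and 34.5% to 49.4% in control libraries. Of the 13 other forkhead genes tested, edgeR called 0, against 0.0353% of all genes tested. At an unadjusted p under 0.05 there were 2, a level that 3.62% of all genes reached. These were Foxo1, higher, and Foxj1, lower, chosen after their values were seen. Of the 13, 8 were fitted lower (61.5%, against 50.6% of all genes), with a median log2 fold change of -0.23, against -0.0053 over all genes. Foxn3 had a log2 fold change of 0.030 (SE 0.23) and Foxj3 of 0.17 (SE 0.21). Foxp3 was not tested: its expected counts were 32.1 (NX), 3.38 (NY), 8.52 (QT) and 0 (RM) in knockout libraries and 29.7 (NX), 11.2 (NY), 5.54 (QT) and 1.05 (RM) in control libraries, so it was at or near the floor of 3 counts in several of them.

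Proteins that FoxP factors are known to bind were measured at the transcript level as well. All 21 genes of this list were tested, and edgeR called 0, against 0.0353% of all genes tested. Of the 21, 12 were fitted lower (57.1%, against 50.6% of all genes), with a median log2 fold change of -0.026, against -0.0053 over all genes. Sox5, a SoxD factor of developing neurons, was the single gene of the list at an unadjusted p under 0.05. Of all genes tested, 3.62% reached that level. Sox5 was at 130 ± 24.3 CPM in the knockout and 65.9 ± 25.4 CPM in the control (SD, n = 4 each, log2 fold change 0.98, SE 0.30). Its groups did not overlap, which held for 1.13% of genes with the knockout higher. Tbr1, a T-box factor of glutamatergic neurons, was at 99.4 ± 55.7 and 57.8 ± 33.3 CPM, Pias1, a SUMO ligase, at 46.1 ± 8.17 and 58.3 ± 15.8 CPM, and Nr2f1, an orphan nuclear receptor, at 43.2 ± 9.90 and 32.7 ± 12.7 CPM in knockout and control libraries, and none of these passed. Among 11 genes reported as FoxP targets, 7 were tested and 0 passed at an adjusted or unadjusted p under 0.05. Cntnap2, a neurexin-related adhesion protein, was at 31.2 ± 8.44 CPM in knockout and 36.4 ± 10.2 CPM in control libraries, and Vldlr, a reelin receptor, at 177 ± 64.8 and 170 ± 47.0 CPM. Rarb, a retinoic acid receptor, was at 9.10 ± 3.66 and 13.2 ± 13.2 CPM.

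Over the 8 libraries, the gene whose profile lay closest to that of Foxp2 was Pbx3, a homeobox cofactor, with a root mean square difference of 0.158 on the centred log2 CPM scale, against 0.734 for the deviation of Foxp2 from its own mean and a median of 0.773 over 9359 candidate genes. Next came Ppp1r13b (0.251), the AMPA receptor subunit gene Gria1 (0.262), Cep19 (0.284) and the latrophilin gene Adgrl2 (0.301). Closest to Foxp1 were Gins4, part of the DNA replication complex GINS, at 0.183, then Arl6ip1 (0.186), the kinase gene Vrk1 (0.197), the nucleosome-binding protein gene Hmgn2 (0.199) and Zfp938 (0.199). Closest to Foxp4 were the splicing regulator gene Rbm20 at 0.150, AK018679 (0.159), the complex I subunit gene Ndufa5 (0.164), Cep78 (0.178) and Tgfbrap1 (0.180). Among the members themselves the smallest difference was 0.586, between Foxp2 and Foxp4.

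Summed markers of intercalated cells, given above, were lower in the knockout in 4 of 4 prefixes, as Foxp2 and Foxp4 were, but without Tshz1 in only 2 of them. Of single genes tested, 8.49% were lower and 8.36% higher in all 4 prefixes. By fitted direction, 50.6% of all genes tested were lower, and 6999 of 14157 were higher. Markers of other cells were summed in the same way. Cycling progenitor markers, 12 of 12 of which were fitted higher, summed to 142 (NX), 1439 (NY), 1307 (QT) and 1243 CPM (RM) in knockout libraries and 97.1 (NX), 558 (NY), 863 (QT) and 495 CPM (RM) in control libraries. They were higher in the knockout in 4 of 4 prefixes, as Foxp1 was, and low in both NX libraries, where Foxp2 was highest. Striatal projection neuron markers, 8 of 13 tested fitted higher, summed to 805 to 1560 CPM in the knockout and 794 to 1298 CPM in the control, and were higher in the knockout in 4 of 4 prefixes; Tac1, Pdyn and Ikzf1 were at 0 in some libraries. Bcl11b, a zinc finger factor of these neurons, held most of that sum, at 827 ± 259 CPM in the knockout and 595 ± 146 CPM in the control (SD, n = 4 each). Without it the other 13 genes summed to 327 to 476 CPM in the knockout and 387 to 540.4 CPM in the control, higher in the knockout in 1 of 4 prefixes. Six3, a homeobox factor of striatal precursors, was lower in 4 of 4 prefixes, at 135 ± 44.9 CPM in the knockout and 246 ± 87.0 CPM in the control (edgeR p of 0.0116 unadjusted and 1.00 adjusted). Adora2a, of the same list, went the other way and was lower in 0 of 4 prefixes. It was at 34.3 ± 13.6 CPM in the knockout and 14.6 ± 6.81 CPM in the control (log2 fold change 1.23, unadjusted edgeR p of 0.00771). Adora2a did not pass after adjustment either, and every other tested gene of the list had a larger p. Pallial glutamatergic markers, 6 of 11 fitted higher, summed to 196 (NX), 332 (NY), 537 (QT) and 376 CPM (RM) in knockout libraries and 43.9 (NX), 412 (NY), 412 (QT) and 279 CPM (RM) in control libraries, with Slc17a7 and Emx1 at 0 in some libraries. The part of these cells in the values of Foxp1, Foxp2 and Foxp4 was not tested. The summed levels of the other lists overlapped between genotypes too: 213 to 885 CPM in knockout and 135 to 749 CPM in control libraries for radial glia and astrocytes, 44.4 to 71.7 and 19.9 to 73.8 CPM for the oligodendrocyte lineage, 9.40 to 55.3 and 4.71 to 132 CPM for microglia, 3.06 to 13.98 and 1.36 to 57.7 CPM for vascular and meningeal cells, and 0.913 to 141 and 0.765 to 275 CPM for erythroid cells. Of their genes tested, 5 of 7 radial glia and astrocyte, 4 of 7 oligodendrocyte lineage, 8 of 8 microglia, 3 of 3 vascular and meningeal and 3 of 3 erythroid markers were fitted lower. The summed levels of the last 3 lists were lower in the knockout in 3, 2 and 2 of 4 prefixes, in that order.

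**Figure D4:**
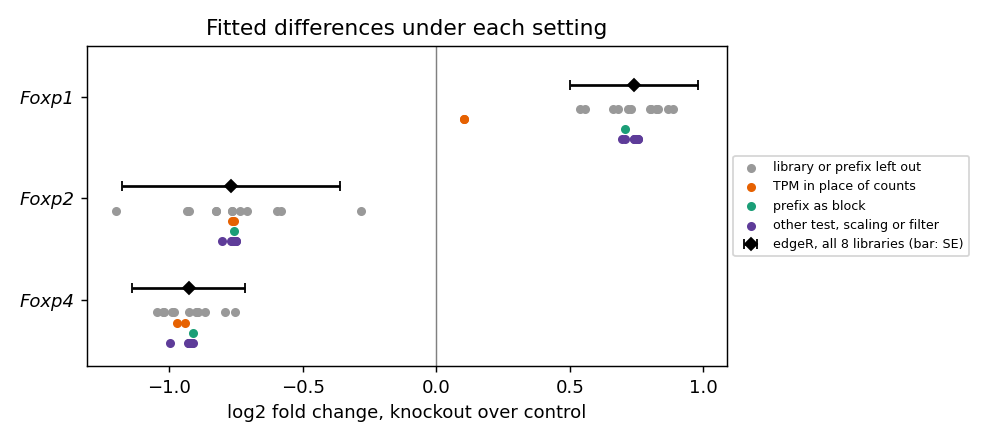
Fitted log2 fold change, knockout over control, of each member with all 8 libraries (black diamond, bar SE) and under 22 alternatives (coloured points). Foxp4 stays between -1.05 and -0.75, Foxp2 spreads from -1.20 to -0.28 as libraries are left out, and Foxp1 drops to 0.10 where TPM replace counts.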

How the data were processed

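Amplified cDNA (NuGEN Ovation) of GFP-sorted cells was sequenced as Nextera XT libraries, per the labels' protocols. The submitters' processing notes name RSEM 1.2.22, Bowtie2, Trimmomatic 0.33 and mm10; no annotation release is given. Per the file headers, the authors deposited RSEM expected counts, TPM, and the length and effective length of each gene (other values, in bases), per library; the 16 matrix columns equalled the sample files (largest difference 0). The kit as named does not mark strand, and the reads carry no molecular identifiers.

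Expected counts were rounded and tested with edgeR 4.0.16 (R 4.3.3; filterByExpr, TMM, quasi-likelihood test, genotype as the single term), with Benjamini-Hochberg adjustment over 14157 genes and a threshold of 0.05. SE were taken from the quasi-likelihood F. Log2 CPM (prior count 2) was compared by exact permutation over 70 splits. Log2 length was fitted with limma 3.58.1 over genes with at least 2 transcripts and at least 10 counts in every library. DESeq2 1.42.0 and limma-voom were alternatives. Of forkhead symbols, 2 antisense ones were left out. Both models were tested on simulated data. The members, lists and tests were chosen with earlier results of these data known. Genes named are the members, Foxp3, Tshz1, the 3 other forkhead genes with the highest TPM, up to 4 members of each of the partner and target lists by smallest p (average log2 CPM at least 3), and the 5 closest profiles of each member; marker genes were named after their values were seen, some genes of the marker lists are given as sums only, and values of a few genes chosen this way are not reported here.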

Additional observations from a re-analysis of the deposited data

How the results depend on the processing

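The fitted direction of Foxp1, Foxp2 and Foxp4 was kept in all 22 alternatives to edgeR's fit with all libraries, and none passed except Foxp4 in DESeq2 (log2 fold change -0.91, adjusted p = 0.0493). Leave-one-out values ran from 0.56 to 0.89 for Foxp1, -1.20 to -0.28 for Foxp2 and -1.02 to -0.79 for Foxp4. The log2 CPM differences ran from 0.54 to 0.86, -1.08 to -0.41 and -1.01 to -0.78. Knockout RM was the only knockout library with Foxp1 below a control, and without it the exact permutation p of Foxp1 was 0.0286. With any other library left out that p was 0.0571 to 0.114. Foxp1 was at 0.10 with TPM, which differ from CPM both in the division by length and in the scaling of each library, without TMM. The difference in log2 effective length of Foxp1, knockout minus control, was 0.54. The part of length and of scaling in this drop was not tested.

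Same-prefix libraries deviated together with correlations from 0.0658 (QT) to 0.45, and 3 of 4 knockout libraries correlated best with their own prefix. Knockout and control libraries of different prefixes had correlations from -0.352 to 0.0753. The labels do not say what a prefix marks and the QT pair hardly deviated together, so the prefix was not taken as a pairing. With the prefix as a replicate block, edgeR gave log2 fold changes of 0.71 (SE 0.17, adjusted p = 0.195) for Foxp1, -0.76 (SE 0.14, unadjusted p = 0.000161, adjusted p = 0.0635) for Foxp2 and -0.91 (SE 0.21, adjusted p = 0.161) for Foxp4, with all 3 at an unadjusted p under 0.05. The exact sign-flip test within prefixes gave -0.90 for Foxp4 with p = 0.125, the smallest it can give.

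Genes called numbered 5 with all libraries, 28 with the replicate block, 40 in DESeq2, 19 without a low-count filter, 10 with log2(TPM + 1), 9 with library totals alone, and 2 each in limma-voom and the robust fit. They numbered 0 to 5 with a library left out, 3 without both NX libraries, and 0 in edgeR without both NY (430 at an unadjusted p under 0.05), QT (262) or RM libraries (470). With a library left out, differences in log2 length ranged from 0.38 to 0.64 for Foxp1, -0.089 to 0.0046 for Foxp2 and -0.050 to 0.061 for Foxp4, which was at -0.0015 with effective length. The cause of these shifts was not tested. Foxp3, with 0 to 32 counts, was too low to test.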
